A study of Homo sapiens with 8 samples.

Results

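Wild-type TET1 was set against catalytically mutant TET1 in HEK293T, an established line derived from human embryonic kidney and holding SV40 large T antigen. The members were chosen by label: the wild-type plasmids TET1-CD and TET1-FL, each against the mutant of its own construct (mTET1-CD, mTET1-FL), 4 of the 8 arrays of the series, 1 array each. Per the labels, each of these cell populations was transfected with an expression plasmid and sorted by fluorescence 3 days later. A further array held cells given the empty vector and sorted in the same way, and serves here as a level. The remaining 3 arrays held lentiviral shRNA cells (1 control clone, 2 TET1 knockdown clones). The labels spell out neither CD and FL nor the mutation, and no label names separate cultures, so a wild-type array and its mutant differ by the plasmid and by anything else that differed between those cell preparations. Values are deposited log2 signals of transcript clusters, the probe groups of the array, each read as 1 transcript or gene. A difference of 1 on this scale is 2-fold.

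TET1 is a dioxygenase that oxidises 5-methylcytosine, the methylated base of CG dinucleotides in DNA. The oxidised base is lost during replication or is removed by the glycosylase TDG and base excision repair, so that methylation of a promoter can be reversed. A catalytic mutant can still occupy DNA and bind partner proteins, and the comparison of wild-type with mutant is therefore commonly used to ask which changes depend on the oxidation itself. Promoters rich in CG, including those of many KRAB zinc finger genes, are usually free of methylation when active, and some are methylated in cancer and in cell lines. KRAB zinc finger genes encode DNA-binding proteins that silence transposable elements through the corepressor TRIM28, and most lie in tandem arrays on chromosome 19.

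The sequences that the results turn on come from RefSeq, build GRCh38.p14. Of the 14 miRNA genes named by the rule for named genes, 12 had an entry. The first set holds the mature forms of the 5 miRNA genes among the named genes that were lower with wild-type TET1 in both constructs, with the seed (bases 2 to 8 from the 5′ end), which pairs with target transcripts, in capitals. No seed is shared among these forms. Outside the set the seed of miR-222-3p is that of miR-221-3p, the seed of miR-501-3p that of miR-502-3p, and the seed of miR-4526 that of miR-3660.
hsa-miR-4526: gCUGACAGcagggcuggccgcu
hsa-miR-127-3p: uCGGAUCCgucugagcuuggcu
hsa-miR-127-5p: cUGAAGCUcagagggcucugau
hsa-miR-222-3p: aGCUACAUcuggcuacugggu
hsa-miR-222-5p: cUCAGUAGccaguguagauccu
hsa-miR-501-3p: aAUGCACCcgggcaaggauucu
hsa-miR-501-5p: aAUCCUUUgucccugggugaga
hsa-miR-645: uCUAGGCUgguacugcuga

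The second set holds promoter windows (250 bases before to 50 after the gene start, read 5′ to 3′ on the gene's strand) of genes that were higher with wild-type TET1 in both constructs: 3 zinc finger genes, the group that leads the results, and TPH1, second in rank. Each CG, the dinucleotide that TET1 acts on when methylated, is in capitals. CG reads the same on both strands and its matches cannot overlap.
ZNF585B, chr19:37210487-37210786, minus strand: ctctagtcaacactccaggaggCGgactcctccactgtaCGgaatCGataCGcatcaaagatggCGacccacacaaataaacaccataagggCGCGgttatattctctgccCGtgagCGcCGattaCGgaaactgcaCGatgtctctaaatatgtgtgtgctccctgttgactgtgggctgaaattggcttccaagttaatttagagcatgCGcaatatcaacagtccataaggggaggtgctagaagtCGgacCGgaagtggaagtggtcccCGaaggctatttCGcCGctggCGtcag
ZNF554, chr19:2819618-2819917, plus strand: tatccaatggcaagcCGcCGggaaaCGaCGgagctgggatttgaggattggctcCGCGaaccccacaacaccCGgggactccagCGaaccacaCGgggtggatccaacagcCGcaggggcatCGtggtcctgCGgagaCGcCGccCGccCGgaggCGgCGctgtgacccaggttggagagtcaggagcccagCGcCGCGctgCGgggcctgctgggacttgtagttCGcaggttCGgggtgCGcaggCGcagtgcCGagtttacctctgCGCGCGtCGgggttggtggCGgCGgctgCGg
ZNF224, chr19:44094111-44094410, plus strand: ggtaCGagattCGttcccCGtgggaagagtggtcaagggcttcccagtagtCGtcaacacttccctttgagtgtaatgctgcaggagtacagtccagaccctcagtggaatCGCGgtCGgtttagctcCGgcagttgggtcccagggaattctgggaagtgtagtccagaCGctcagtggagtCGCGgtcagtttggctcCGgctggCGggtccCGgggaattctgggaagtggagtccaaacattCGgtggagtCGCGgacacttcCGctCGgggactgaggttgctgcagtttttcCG
TPH1, chr11:18046220-18046519, minus strand: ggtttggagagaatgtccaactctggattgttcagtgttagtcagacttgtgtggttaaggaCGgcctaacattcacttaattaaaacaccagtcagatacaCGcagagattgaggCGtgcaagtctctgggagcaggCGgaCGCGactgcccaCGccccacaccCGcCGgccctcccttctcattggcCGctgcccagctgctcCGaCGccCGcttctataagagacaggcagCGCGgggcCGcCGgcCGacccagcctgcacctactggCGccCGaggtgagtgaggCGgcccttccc

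These windows hold 19 (ZNF585B), 34 (ZNF554), 20 (ZNF224) and 21 (TPH1) CG dinucleotides. A CG is present in 96.0% of the 35116 RefSeq promoter windows of this length, with a median of 14. Among the 10797 genes kept for the comparison, 8288 had a window, with a median of 26. Methylation at these windows was not analysed here.

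TET1 signal shows whether each plasmid was expressed. It was measured by 2 transcript clusters. Cluster 16715048 stood at 5.86 with the vector, 12.10 with TET1-CD, 12.03 with mTET1-CD, 11.80 with TET1-FL and 11.91 with mTET1-FL. Wild-type and mutant were thus close in both pairs, apart by 0.071 in CD and -0.11 in FL. Cluster 16705381 stood at 9.51 with the vector, 10.42 with TET1-CD, 11.05 with mTET1-CD, 12.22 with TET1-FL and 12.47 with mTET1-FL. Here the wild-type array was the lower of each pair, by -0.63 in CD and -0.25 in FL (mean -0.44 ± 0.14 SE, limma adjusted p = 0.934), and the CD pair lay below the FL pair. Less TET1 signal in this cluster therefore goes with the wild-type label in every comparison below, and its part in those results was not tested. TET2, the sister dioxygenase, stood at 8.22 on both wild-type arrays and at 8.12 on both mutant arrays, and the vector at 7.85.

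The 5 plasmid and vector arrays had medians between 5.51 and 5.55, and 28946 transcript clusters lay above the array median on at least 2 of the 8 arrays and were kept. All 10 kidney and neuronal lineage markers named on the array (PAX2, LHX1, WT1 and KRT18 among them) lay above the median on all 4 TET1 arrays, with summed signals of 71.31 to 73.74. Of other cell types, 1 of 5 blood markers (NKG7), 0 of 3 fibroblast markers and 2 of 7 liver markers (APOA1, TTR) did so, and CD14, LYZ, DCN, LUM and ALB lay below the median on all 4. Their summed signals were 26.06 to 27.6 (blood), 11.85 to 13.1 (fibroblast) and 35.67 to 36.3 (liver). In bulk RNA, fewer cells expressing a gene and less RNA per cell cannot be told apart.

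**Figure D1:**
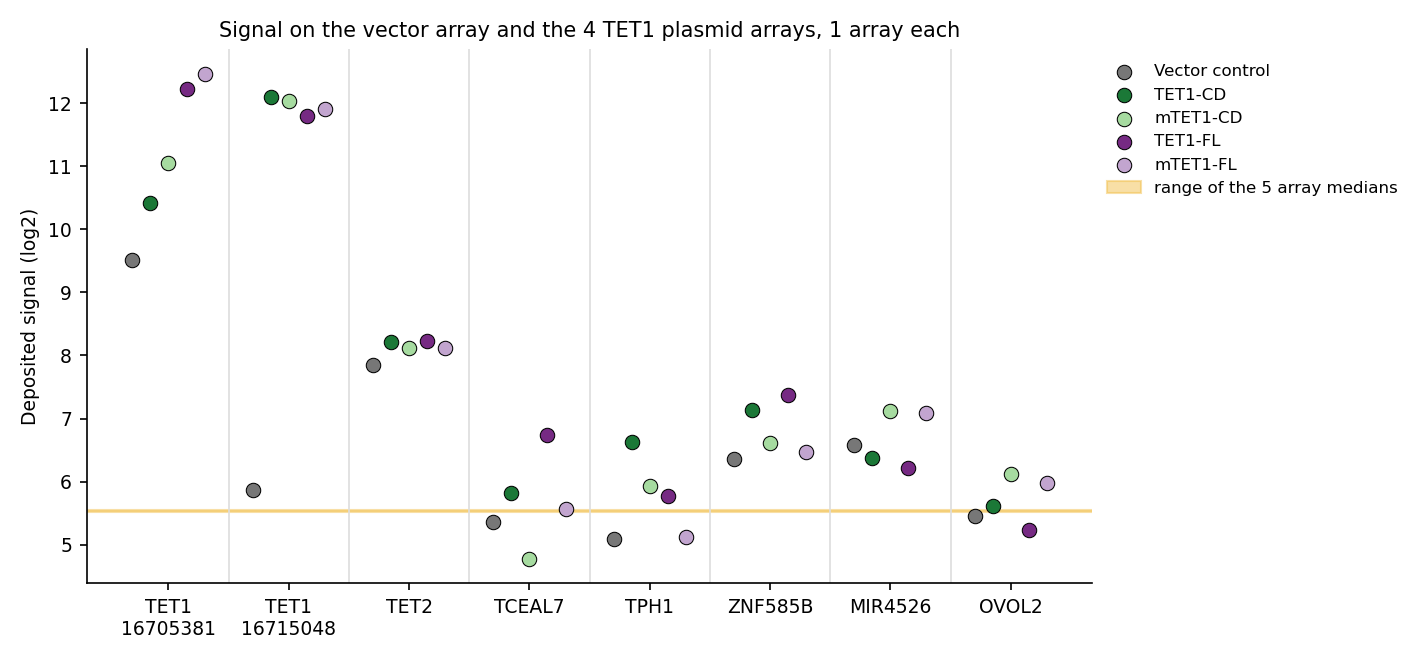
Deposited log2 signal (vertical axis) of the 2 TET1 clusters and 6 genes on the vector array and each TET1 plasmid array, with 1 point per array and the range of the array medians as a band. TET1 cluster 16715048 is between 11.80 and 12.10 with the TET1 plasmids, while TCEAL7, TPH1 and ZNF585B are higher and MIR4526 and OVOL2 lower on the wild-type array of each pair.

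The main question was which genes differed between wild-type and mutant TET1 in the same direction in both constructs. TCEAL7, an X-linked gene of the TCEAL family, related by sequence to a transcription elongation factor, stood furthest apart on the higher side. The zinc finger genes ZNF585B, ZNF157, ZNF554 and ZNF10 made up 4 of the 15 genes ranked highest by the smaller of the 2 differences. On the lower side, 5 of the 15 were miRNA genes, led by MIR4526. Among all 10797 genes kept, 396 had a numbered ZNF symbol and 381 were miRNA genes. Of those miRNA genes, 190 lay in the lowest of 4 equal bins of genes by mean level. No difference passed the test: limma on the 4 arrays with construct as a block called 0 of 28946 clusters (0%) at an adjusted p of 0.05, the lowest being 0.934. At an unadjusted p under 0.05 there were 1458 clusters (5.04%). The only residual degree of freedom in this fit is how far the CD and FL differences disagree, so the errors below rest on the disagreement of 2 pairs, moderated by limma towards the spread common to all clusters (prior SD 0.108), and not on a spread of replicate cultures.

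TCEAL7 stood at 5.83 with TET1-CD and 4.78 with mTET1-CD, and at 6.74 with TET1-FL and 5.56 with mTET1-FL. Both wild-type arrays lay above both mutant arrays, and the vector array, at 5.36, lay between the mutants. The differences were 1.05 and 1.18, or 2.07-fold and 2.26-fold (mean 1.12 ± 0.098 SE, limma adjusted p = 0.934). The mTET1-CD value was below the median of its array, where background can hold a signal up and narrow a difference. Differences also spread more widely at low signal. Of 4 equal bins of genes by mean level, the lowest, which holds TCEAL7, had an SD of 0.211 in CD and 0.239 in FL. The highest bin had 0.124 and 0.121. In the shRNA cells the same cluster stood at 4.45 in the control clone and at 5.54 and 5.22 in the knockdown clones. Genes next to TCEAL7 on the X chromosome did not share its difference: in the CD and FL pairs BEX2 stood at -0.16 and -0.42, TCEAL9 at -0.10 and -0.20, BEX3 at 0.19 and 0.065, TCEAL5 at 0.15 and -0.27, and TCEAL8 at -0.16 and 0.32. TCEAL1, TCEAL3 and TCEAL4 also had opposite signs in CD and FL, with differences between -0.36 and 0.26. The paralog TCEAL6 had differences of 0.40 and 0.86, but was under the filter on low signal (2.86, 2.46, 4.19 and 3.33 on the 4 arrays), and TCEAL2 likewise was not kept.

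TPH1, the enzyme that starts serotonin synthesis outside the brain, stood at 6.62 and 5.94 in CD (here and below the wild-type value comes first) and at 5.77 and 5.11 in FL. The differences of 0.68 and 0.66 were nearly equal, but the constructs were offset, so that TET1-FL lay below mTET1-CD. NAGS, whose product makes the activator of the urea cycle, stood at 7.17 and 6.39 in CD and at 7.05 and 6.48 in FL, with both wild-type arrays above both mutants and the vector lowest at 6.20. ZNF585B stood at 7.14 and 6.61 in CD and at 7.38 and 6.47 in FL, against 6.35 with the vector. Its differences were 0.52 and 0.90 (mean 0.71 ± 0.14 SE, limma adjusted p = 0.934). ZNF157, on the X chromosome, differed by 0.74 and 0.48, ZNF10 by 0.73 and 0.46, and ZNF554 by 0.47 and 0.55. For ZNF554 the vector array, at 6.06, lay above all 4 TET1 arrays, the wild-type arrays at 5.84 and 5.98 being nearest to it.

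The other 8 genes of the 15 had smaller differences between 0.44 and 0.46. They were the sarcomeric gene LRRC39, the endosomal sorting gene SNX19, PLPP7, the long noncoding RNAs LINC02249 and NSMCE1-DT, and the pseudogenes MRPL42P5, RDM1P5 and LCMT1P1, whose probes may also read the genes they were copied from. Against the vector, 13 of the 15 stood higher on both wild-type arrays and 7 stood higher on both mutant arrays. MRPL42P5, SNX19 and LCMT1P1 passed the filter on low signal only through the 2 wild-type arrays, so they had to lie above the vector and the mutants relative to the array medians. Without them, the vector was below both wild-type arrays in 10 of 12 and below both mutant arrays in 6. Ranking by wild-type minus mutant itself favours high wild-type and low mutant values, so these counts only describe the genes ranked. In 8 of the 15 at least 1 of the 4 arrays lay below its median. All 15 had a limma adjusted p of 0.934.

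On the lower side MIR4526 stood at 6.37 and 7.12 in CD and at 6.21 and 7.09 in FL, and the vector, at 6.58, lay between wild-type and mutant. Its differences were -0.75 and -0.88 (mean -0.81 ± 0.098 SE, limma adjusted p = 0.934). OVOL2, a zinc finger repressor that maintains epithelial identity, stood at 5.62 and 6.13 in CD and at 5.23 and 5.98 in FL. MIR127, of the imprinted cluster on chromosome 14, stood at 7.40 and 7.87 in CD and at 7.23 and 7.83 in FL, with the vector again between, at 7.60. MIR222, which shares its 3p seed with miR-221-3p as printed above, stood at 5.92 and 6.30 in CD and at 5.84 and 6.23 in FL, all below the vector's 7.05. MIR221, which lies beside it, differed by -0.21 in CD and 0.41 in FL and so had opposite signs. MIR501 and MIR645 differed by -0.81 and -0.37, and by -0.37 and -0.68. Whether these clusters read a mature miRNA or its longer precursor was not analysed here.

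The protein-coding genes on this side were JPH2, a junctional membrane protein of muscle (-0.48 and -0.56), the ribosomal protein gene RPL31 (-0.47 and -0.48), the chromatin protein gene NUCKS1 (-0.45 and -0.52), the neuronal kinase gene CAMK2A (-0.38 and -0.56), TRABD2B (-0.41 and -0.44) and the hair keratin-associated genes KRTAP9-4 (-0.48 and -0.51) and KRTAP10-1 (-0.45 and -0.73). KRTAP genes have near-identical copies, so these 2 are uncertain. A further cluster of NUCKS1 differed by 0.03 and -0.01, and 2 further clusters of TRABD2B by 0.02 and -0.26 and by -0.01 and -0.19. The pseudogenes NPAP1P9 and ABCA15P completed the 15, and a further cluster of NPAP1P9 differed by -0.02 and 0.06. The vector stood above both wild-type arrays in 13 of the 15 and below both mutant arrays in 10. Here the ranking favours low wild-type and high mutant values, so these counts against the vector only describe the genes ranked. In 8 of the 15 at least 1 TET1 array lay below its median.

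Opposed genes were higher with wild-type TET1 in 1 construct and lower in the other. MSX2P1, a pseudogene, had the largest such contrast among named genes, at 5.13 and 6.00 in CD and at 6.44 and 5.49 in FL, or -0.87 and 0.95. The vector value, 6.00, was the same as that of mTET1-CD and of both TET1 shRNA arrays. MIR548H2 ran the other way, at 7.66 and 7.06 in CD and at 6.63 and 7.32 in FL (0.60 and -0.69). The zinc finger gene ZNF430 had 0.47 in CD and -0.90 in FL. The other genes with CD higher were AFAP1-AS1, MIR147A, LOC100288570, RGPD3, MIR3925 and TMEM191C, with 0.43 to 0.64 in CD and -0.52 to -0.43 in FL. AFAP1-AS1 had the same value, 5.48, on both mutant arrays, the vector array and every shRNA array. LOC100288570 had the same value, 5.94, on both mutant arrays. RGPD3 and TMEM191C belong to families of near-identical copies and are uncertain. Those with FL higher were TGFB2-AS1, LOC100129534, KHDC1L, OGFRP1, MIR3194, MIR554 and MIR4757, with -0.57 to -0.37 in CD and 0.40 to 0.93 in FL.

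None of these contrasts between constructs passed, but the spread used in the test is that of lentiviral clones. It is no spread of the plasmid arrays, so the test cannot decide on these contrasts. The test of CD minus FL borrows its spread from the 2 TET1 shRNA clones, the only group with 2 arrays, and limma called 0 of 28946 clusters (0%). The lowest adjusted p was 1, and 243 clusters had an unadjusted p under 0.05. With each array centred on its own median, an alternative added after the data were seen, it called 36, all without a gene name. In that setting limma's prior for the spread had 156 degrees of freedom, against 1.64 for the deposited values, in which 445 clusters are equal on both shRNA clones (0 after centring). Cyclic loess called 0, with a prior of 3.65. In the wild-type minus mutant fit the 8 genes with CD higher had limma adjusted p between 0.972 and 1, with ZNF430 at a mean of -0.22.

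**Figure D2:**
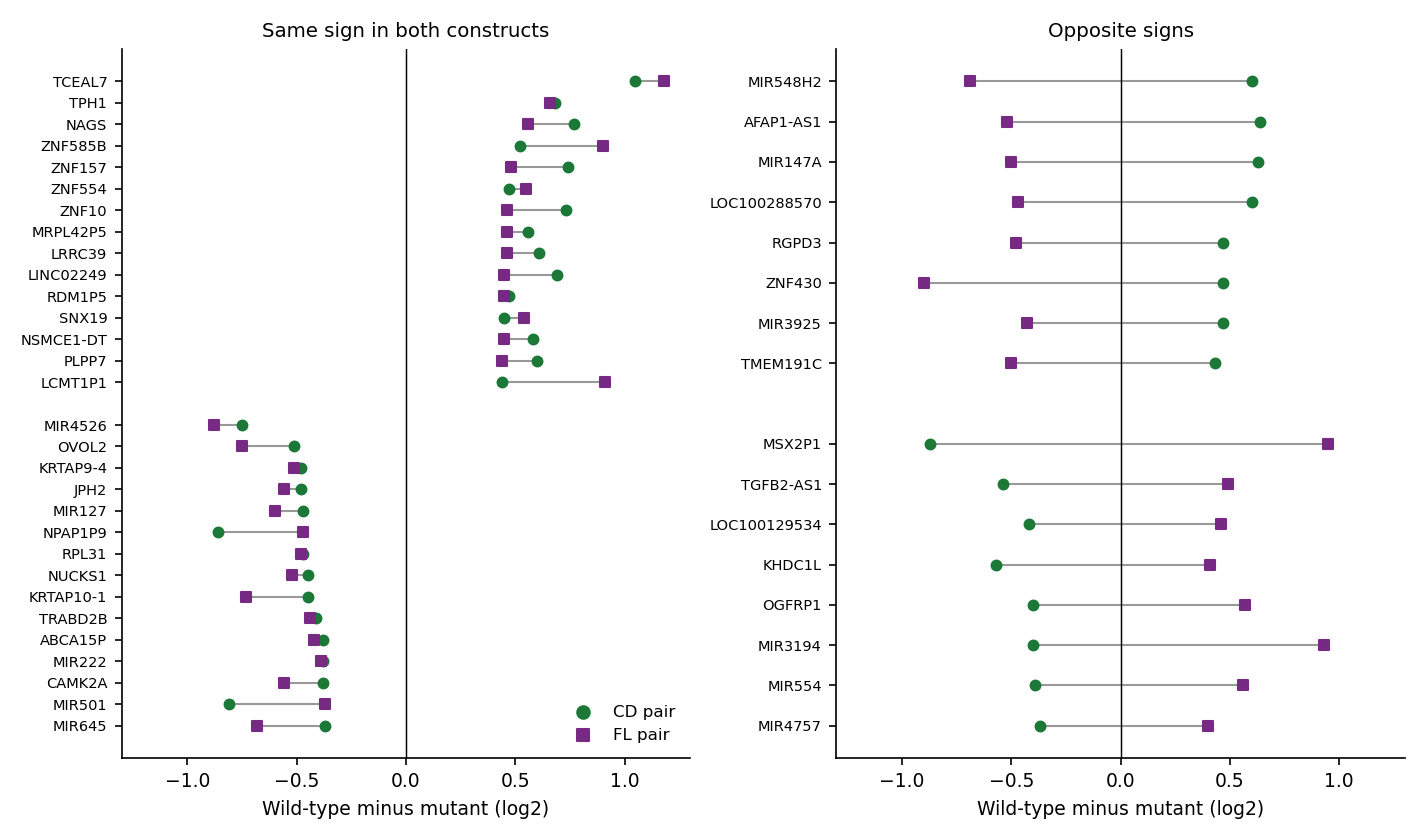
Wild-type minus mutant (horizontal axis, log2) in the CD pair (circles) and the FL pair (squares) for the 15 genes ranked highest and the 15 ranked lowest with the same sign in both pairs (left) and the 16 opposed genes (right), 1 array against 1 array in each pair. TCEAL7 is the only one of these genes past 1 in both pairs, and MSX2P1 spans -0.87 to 0.95.

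Within a pair there is 1 array on each side, so past-the-fold counts describe those arrays. TET1-CD was at least 2-fold above mTET1-CD in 93 of 28946 clusters (0.321%) and at least 2-fold below in 70 (0.242%). TET1-FL was above mTET1-FL in 73 (0.252%) and below in 140 (0.484%). The 2 pairs share no array. Clusters past 2-fold in both were 3 higher in both (3.23% of the CD list and 4.11% of the FL list), 4 lower in both (5.71% and 2.86%), 15 higher in CD and lower in FL (16.1% and 10.7%) and 5 lower in CD and higher in FL (7.14% and 6.85%). Of these 27, TCEAL7 was the only one with a gene name. At least 1 of the 4 arrays was below its median in 14 of the 15 clusters higher in CD and lower in FL, in all 5 with the reverse pattern and in 3 of the 3 and 3 of the 4 with the same sign.

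At 1.5-fold, TET1-CD was above mTET1-CD in 516 clusters (1.78%) and below in 351 (1.21%), and TET1-FL was above in 475 (1.64%) and below in 769 (2.66%). In both pairs, 50 were higher, 26 lower, 62 higher in CD and lower in FL, and 34 the reverse, so 96 of 172 were opposed. Named genes were 5 of the 172: TCEAL7 and TPH1 higher, MIR4526 lower, MIR548H2 and MSX2P1 opposed. Across all 28946 clusters, which are not independent replicates and share the 4 arrays, the CD and FL differences had r = 0.0042 and rho = 0.031, and with 1 cluster per gene r was 0.083. The largest differences of a single pair were mostly not shared. LINC02525 had 1.16 in CD and 0.29 in FL, and was kept only through the 2 wild-type arrays, the others being below their medians. In CD and FL, ULBP1, a ligand of a natural killer cell receptor, had 0.96 and 0.10, TKTL1 0.89 and 0.056, CCDC30 0.86 and 0.22, TMEM229A -0.89 and 0.31, and KRTAP3-2 -0.81 and -0.22. In FL, HNRNPA1P33 had -1.41 against 0.33 in CD, MIR4518 -1.11 against -0.21 and VTRNA1-2 1.08 against -0.18. Likewise MIR378E had -1.06 against 0.31, MIR191 -1.02 against 0.16, and 1 of the 2 clusters of SIAE -1.0 against -0.039. The other SIAE cluster had 0.03 against -0.07. Several of these signals were low. The first SIAE cluster lay below the median on all 4 TET1 arrays. HNRNPA1P33, VTRNA1-2 and KRTAP3-2 did so on 3 arrays each, TMEM229A on 2 and MIR378E on 1.

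**Figure D3:**
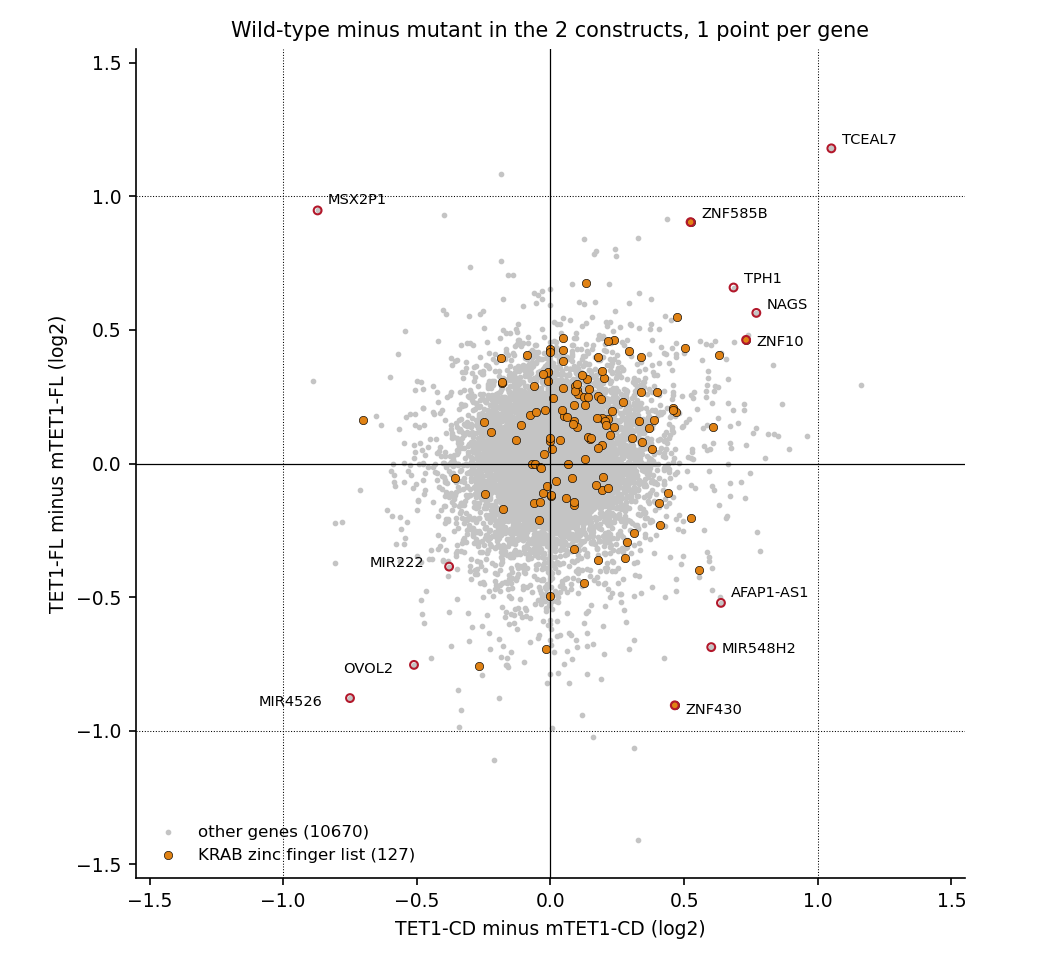
TET1-CD minus mTET1-CD (horizontal axis, log2) against TET1-FL minus mTET1-FL (vertical axis, log2) for 10797 genes, 1 cluster each, with members of the KRAB zinc finger list filled and dotted lines at 2-fold. Most genes form a round cloud about 0, TCEAL7 lies alone past 2-fold in both pairs, and more zinc finger genes lie above 0 in both pairs (67) than below 0 in both (13).

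KRAB zinc finger genes were the largest gene list, and their members leaned to the higher side with wild-type TET1 in both constructs. Of 190 genes in the list, 176 were named on the array and 127 passed the filter on low signal. Of those 127, 67 were higher in both pairs (52.8%), 13 lower in both (10.2%), 41 opposed and 6 equal in a pair. Among all 10797 genes with 1 cluster each, 2991 were higher in both (27.7%), 2209 lower in both (20.5%), 4840 opposed and 757 equal in a pair. The median difference of the list was 0.10 in CD and 0.16 in FL, against 0.00013 and 0.013 for all genes. No member passed the test. At an unadjusted limma p under 0.05, 12 of the 127 were on the higher side and 1 on the lower, and of all genes 1.44% and 0.954%.

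**Figure D4:**
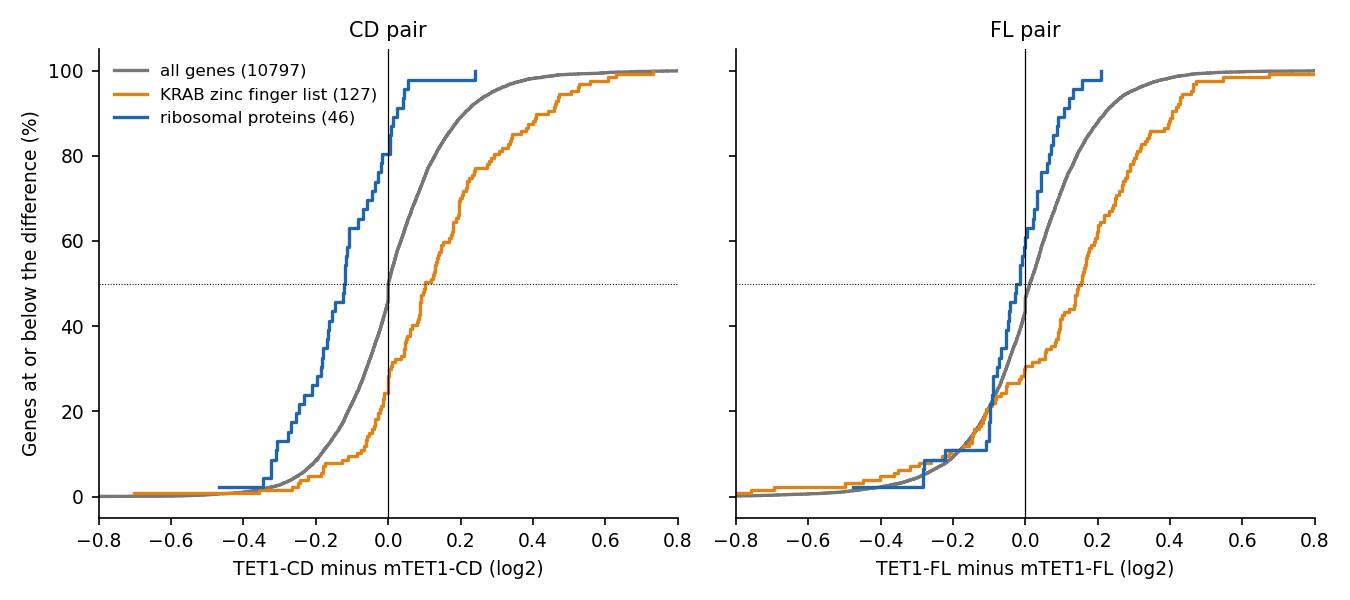
Share of genes (vertical axis, %) at or below a given wild-type minus mutant difference (horizontal axis, log2) in the CD pair (left) and the FL pair (right), for all 10797 genes, the 127 zinc finger genes kept and the 46 ribosomal protein genes kept. The zinc finger curve lies to the right of that of all genes through most of its range, with medians of 0.10 and 0.16, and the ribosomal curve crosses the dotted 50% line to the left, at -0.12 and -0.02.

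The members further apart than most are named here after their values were seen, beside ZNF585B and ZNF10, which the rule for lists named. ZNF224, a repressor whose promoter is printed above, had a vector level of 4.93, against 6.73 and 6.22 in CD and 7.51 and 7.08 in FL. All 4 plasmids were above the vector, and within each pair the wild-type was the higher, by 0.50 and 0.43 (mean 0.47 ± 0.094 SE, limma adjusted p = 0.934 as for the other members named). ZNF766 stood at 7.50 and 6.87 in CD and at 7.50 and 7.10 in FL, so that the wild-type arrays were level and the mutants nearer the vector's 6.99. ZNF416 differed by 0.29 and 0.42, ZNF284 by 0.34 and 0.40, ZNF776 by 0.21 and 0.46 and ZNF461 by 0.24 and 0.46. Lowest was ZNF429, at -0.27 and -0.76, which like the opposed ZNF430 lies in the tandem array from ZNF737 to ZNF681. Zinc finger genes share long stretches of similar sequence, so signal of neighbours may be partly shared.

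As for the vector, the list's median stood above it by 0.19 with TET1-CD, 0.10 with mTET1-CD, 0.34 with TET1-FL and 0.20 with mTET1-FL, where the medians of all genes were 0.0094, 0.011, 0 and -0.0026. The 4 values share the vector array. The median was thus above the vector with the mutants as well, and higher with the wild-type of each pair. The zinc finger genes that lay above the median on all 4 arrays, 108 in number, had 61 higher in both pairs and 11 lower, with medians of 0.11 and 0.16.

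The lean varied with signal level and was largest in the middle bins, when all genes were split into 4 equal bins by mean level. In the lowest bin 13 of 44 zinc finger members were higher in both (29.5%) and 22 were opposed. The next bin had 30 of 48 higher in both (62.5%), the one above 19 of 26 (73.1%) and the highest 5 of 9 (55.6%). In FL the highest bin had 5 higher and 4 lower. All genes in those bins had 20.8%, 28.2%, 34.0% and 27.8%. The list's median mean difference was 0.062, 0.16, 0.18 and 0.12 in the 4 bins, and that of all genes -0.013, 0.014, 0.032 and 0.011.

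Place on chromosome 19 was compared as well. RefSeq puts 122 of the 127 on chromosome 19, and these had 65 higher in both and 13 lower. The 657 other chromosome 19 genes kept, leaving out ZNF, ZFP, ZIM, ZSCAN and ZBTB symbols, had 141 higher in both (21.5%) and 164 lower (25.0%), with medians of -0.025 and 0.013. Numbered ZNF genes outside chromosome 19, 224 in number, had 87 higher in both (38.8%) and 23 lower (10.3%), with medians of 0.046 and 0.059. The lean to the higher side was therefore also present in zinc finger genes of other chromosomes, at a smaller median, while the other genes of chromosome 19 had more lower than higher in both. These differences between groups of genes were not tested.

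Along chromosome 19, runs of at least 4 neighbouring protein-coding ZNF, ZFP or ZIM genes were counted after the list's values were seen. There were 22 runs, with 140 kept genes, of which 69 were higher in both pairs and 16 lower. Most of the 140 are members of the list above, so these counts largely repeat its lean. Among all genes, 27.7% were higher in both and 20.5% lower. Of the 19 runs with at least 3 kept genes, 16 had a median above 0 in both pairs. The run from ZNF283 to ZNF180 had 11 of 14 higher in both, with medians of 0.21 and 0.19, and holds ZNF224 beside ZNF284, ZNF223 (0.47 and 0.19) and ZNF226 (0.13 and 0.67). The run from ZNF565 to ZNF793, which holds ZNF585B, had 12 of 20. In the runs from ZNF524 to ZNF580, ZNF329 to ZNF8 and ZNF584 to ZNF446, 0 of 5, 0 of 3 and 0 of 4 were higher in both. Apart from ZNF274, the kept genes of those runs are not in the list.

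CG content of the promoter window differed little within the list. Of the 67 members higher in both pairs, 60 had a window, with a median of 21 CG, and of the other 60 members, 54 had one, with a median of 18.5. All genes kept had a median of 26. Genes with 0 to 5 CG, 6 to 20 CG and over 20 CG in the window had median CD differences of 0, 0.0018 and 0.0037 and FL differences of 0, 0.013 and 0.020, so the number of CG in the window went with almost no shift over all genes.

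Ribosomal protein genes leaned the other way, mainly in the CD pair. Of 46 members kept, 5 were higher in both pairs (10.9%) and 23 lower in both (50%), against 27.7% and 20.5% of all genes. In CD 37 were lower and 9 higher, and in FL 27 were lower and 18 higher. The medians were -0.12 in CD and -0.02 in FL. The FL median was close to that of all genes. RPL31 stood at 6.59 and 7.05 in CD and at 6.76 and 7.24 in FL. RPS27 differed by -0.32 and -0.28 and RPL36, named after its values were seen, by -0.28 in both pairs, while RPL14 had 0.24 and 0.06. In CD the list's median was below the vector by -0.26 (wild-type) and -0.13 (mutant), and in FL above it by 0.11 and 0.15. Many ribosomal protein genes have processed pseudogenes of similar sequence, so their signal may be mixed.

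Targets of p53, which large T antigen binds in these cells, had 10 of 16 members higher in both pairs (62.5%). Of the rest, 1 was lower (6.25%), 4 were opposed and 1 was equal in a pair. All genes had 27.7% higher and 20.5% lower. The list's medians were 0.086 in CD and 0.058 in FL, against 0.00013 and 0.013 for all genes. TIGAR, a regulator of sugar metabolism, differed by 0.21 and 0.42, TP53INP1 by 0.60 and 0.054, the kinase gene PLK2 by 0.32 and 0.18 and the apoptosis gene BAX by 0.052 and 0.22. No member passed limma's threshold. At an unadjusted p under 0.05, 1 of the 16 was higher and 0 lower, and of all genes 1.44% and 0.954%. The larger difference was from the vector: the list's median stood above it by 0.67 and 0.46 in CD and by 0.86 and 0.75 in FL. These values all share the 1 vector array.

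The genes that write, read and erase DNA methylation had small and mixed differences. Of 12 writers and readers kept, 4 were higher in both pairs (33.3%) and 2 lower (16.7%), near the 27.7% and 20.5% of all genes. DNMT3B, a de novo methyltransferase, stood at 7.94 and 7.63 in CD and at 7.56 and 7.30 in FL (0.31 and 0.26, mean 0.28 ± 0.093 SE, limma adjusted p = 0.934). Its catalytically inactive partner DNMT3L had -0.18 and -0.45, but lay below the array median on all 4 arrays. The maintenance methyltransferase DNMT1 had -0.067 and 0.10 and its cofactor UHRF1 -0.082 and 0.36. Of 15 genes of TET and TDG demethylation, 2 were higher in both, 3 lower and 10 opposed, with TDG at 0.021 and 0.071, NEIL2 at -0.082 and 0.32 and APEX1 at -0.085 and -0.16.

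Gene classes often named as targets of DNA methylation had unlike shares, set here beside the 27.7% higher and 20.5% lower of all genes. CpG-island genes often methylated in cancer had 9 of 26 higher in both (34.6%) and 5 lower (19.2%), with medians of 0.0059 and 0.043, and included the Wnt antagonist SFRP4 (0.42 and 0.19) and GATA5 (0.027 and -0.52). Imprinted genes had 3 of 15 higher (20%) and 2 lower (13.3%), led by PEG10 (0.72 and 0.20), and HOX genes 5 of 26 higher (19.2%) and 4 lower (15.4%), led by HOXC12 (0.31 and 0.18). Of 18 germline and cancer-testis genes named on the array only 5 passed the filter, 2 higher in both and 2 lower, with CTAG2 at -0.26 and -0.33 and HORMAD1 at 0.77 and -0.26. Bivalent developmental transcription factors had 15 of 44 higher in both (34.1%) and 4 lower (9.09%), with medians of 0 and 0.081. NKX2-1 differed by 0.18 and 0.47 and LHX2 by 0.22 and 0.39. None of these genes passed limma's threshold.

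**Figure D5:**
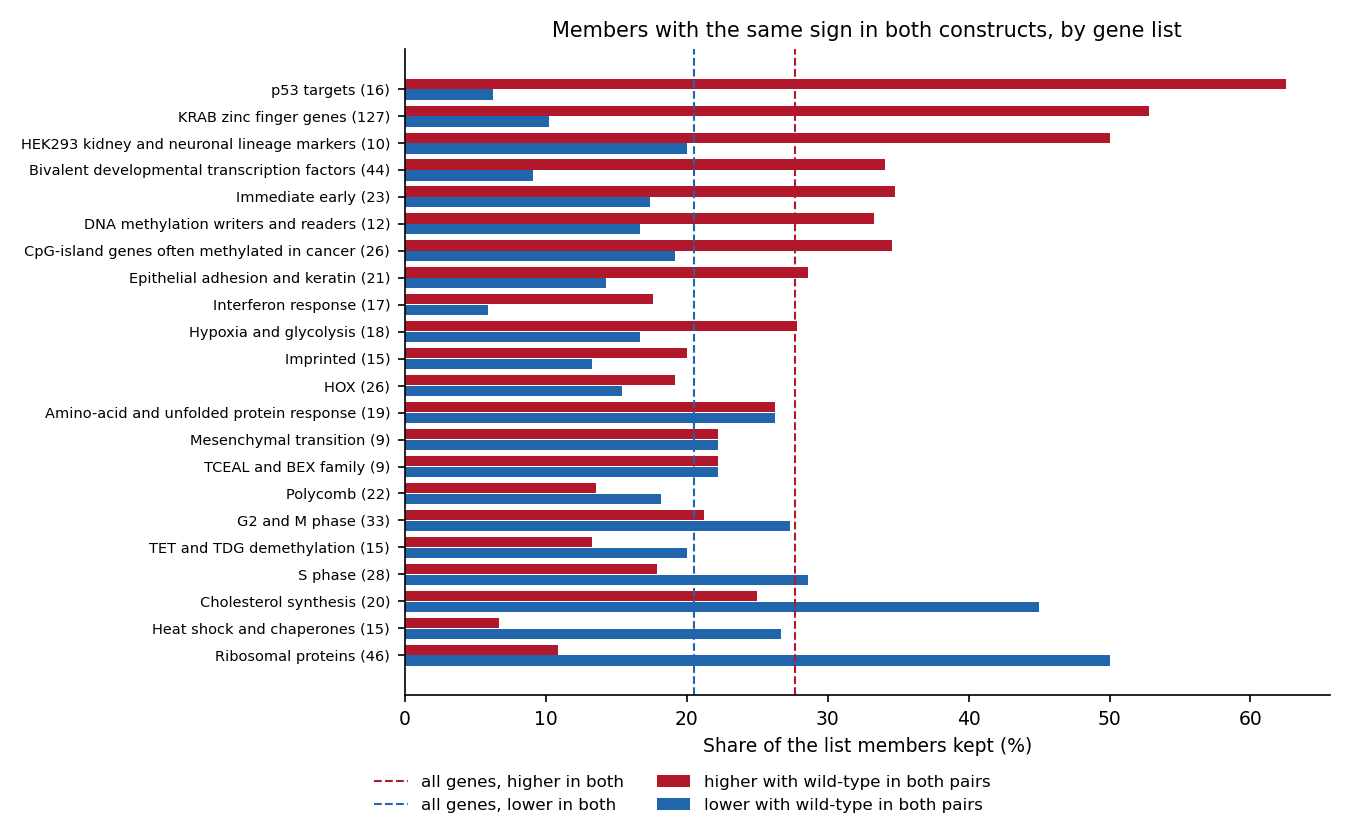
Share of each gene list's kept members (horizontal axis, %) that were higher or lower with wild-type TET1 in both constructs, for lists of at least 9 kept members (number in brackets), with dashed lines at the shares of all genes, 27.7% and 20.5%. The p53 and KRAB zinc finger lists have the longest bars of genes higher in both (62.5% and 52.8%), and ribosomal proteins and cholesterol synthesis the longest of genes lower in both (50% and 45.0%).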

How the data were processed

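The values are the log2 signals that the authors deposited for 8 Affymetrix arrays. They were made with RMA (background correction, normalization between arrays, probe summary) and Affymetrix Expression Console 1.3.1, per the submitters' processing notes. For the settings and the build, nothing is given in the sources used here. Per the labels, 100 ng of total RNA was amplified and biotin-labelled. Of 53981 rows, 53617 held values. By GEO's platform annotation, 16098 of these clusters had 1 gene symbol, 0 had several and 37519 had no symbol. Names, chromosomes and gene order were checked against RefSeq (GRCh38.p14), in which all 11560 kept named clusters were found.

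The filter required a signal above the array's own median on 2 or more of the 8 arrays. It left 28946 clusters, and 11560 of these carried the names of 10797 genes. For gene lists, the cluster with the highest mean over the 4 TET1 arrays stands for a gene. Of the kept clusters, 1415 had the same values as another on all 8 arrays. Wild-type minus mutant was fitted with limma 3.58.1 (lmFit, eBayes) under R 4.3.3 on the 4 TET1 arrays with construct as a block, with a prior of 2.63 degrees of freedom. CD minus FL was fitted on all 8 arrays with 1 mean per group. Adjusted p-values are Benjamini-Hochberg values over all kept clusters, threshold 0.05. The fits were tested on simulated data. With 1 array per plasmid, the number of arrays limits the precision.

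The members and gene lists were chosen with earlier results of these data known. Named genes are the TET and TCEAL genes, the 15 highest and 15 lowest named clusters of equal sign by the smaller absolute difference, the 8 largest opposed in each direction, the 5 largest per pair and direction, and the 2 largest of each list described. Other list members were named after their values were seen. Alternatives were median centring, cyclic loess, other filters, 1 cluster per gene, other fits, identical clusters counted as 1, and each pair alone.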

Additional observations from a re-analysis of the deposited data

How the results depend on the processing

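The count of 0 clusters past the limma threshold for wild-type minus mutant was also 0 in the alternatives run, where 212 to 2444 clusters had an unadjusted p under 0.05. Adjusted p-values for wild-type minus mutant in limma were 0.583 at the lowest, with 1 cluster per gene. CD minus FL gave 36 with median centring. Counts past 2-fold (higher in CD, lower in CD, higher in FL, lower in FL) were 280, 214, 429 and 360 without the filter, 13, 18, 25 and 58 with all 4 arrays above the median, and 2, 0, 2 and 4 with 1 cluster per gene; the filter on the mean gave 55 and 43 for CD. Clusters past 2-fold in both pairs were 36 with the same sign and 43 opposed without the filter, 1 and 1 with all 4 arrays above the median, 1 and 0 with 1 cluster per gene, and 76 and 96 at 1.5-fold, with 7 opposed under the filter on the mean. The pairing by construct in the main fit comes from the plasmid labels. No pairing by replicate number was possible, because the groups compared share only replicate number 1.

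Of the values that answer a comparison, 175 recomputations stayed close to the reported value and 47 moved. With each pair alone, the medians ranged from -0.082 to 0.041 for TET and TDG demethylation, 0.0059 to 0.043 for CpG-island genes, -0.26 to 0.06 for germline genes, 0 to 0.014 for imprinted genes, -0.012 to 0.058 for HOX genes, -0.009 to 0.0032 for Polycomb genes, 0.027 to 0.075 for epithelial genes, -0.00036 to 0 for mesenchymal genes, 0.058 to 0.086 for p53 targets, -0.037 to 0.054 for hypoxia genes, -0.037 to -0.0084 for cholesterol genes, -0.061 to 0.013 for S phase and 0.026 to 0.068 for lineage markers. The imprinted median was -0.0027 with median centring and 0 without the filter, and the Polycomb median 0.0066 with median centring. The mesenchymal median was 0.018 with median centring, 0.0010 with cyclic loess and -0.0068 with all 4 arrays above the median. The zinc finger median was 0.062 over every ZNF symbol and 0.10 to 0.16 in the other 9 alternatives. The cause of these moves was not tested. Named clusters kept their sign in 663 of 663 recomputations, with limma adjusted p between 0.252 and 1 over wild-type minus mutant and CD minus FL. Other filters, other fits with both pairs, 1 cluster per gene and identical clusters counted as 1 use the same deposited values. The sign could not change in those, so the count is no measure of stability there. Only median centring, cyclic loess and each pair alone could change a sign. In each pair alone, ranking by the smaller difference fixes the sign of the genes of equal sign. A further 53 recomputations had no value under a stricter filter. Signal near the array median limits low genes.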

Other observations

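Classes of noncoding RNA, chosen after the values were seen, also had unequal shares. Of 381 miRNA genes kept, 77 were higher with wild-type TET1 in both constructs (20.2%) and 125 lower (32.8%), with medians of -0.028 in CD and -0.034 in FL. Of 4 equal bins by level, the highest had 10 of 17 miRNA genes lower in both (58.8%), against 19.9% of all its genes. The miRNA medians there were -0.089 and -0.22. The lowest bin had 54 of 190 (28.4%), close to the 26.4% of all its genes, with miRNA medians of -0.022 and 0. The 645 long noncoding RNA genes kept had 199 higher in both (30.9%) and 119 lower (18.4%), against 27.7% and 20.5% of all genes. Of 8 small nuclear RNA genes, 0 were higher in both and 3 lower, and their medians stood above the vector by 1.2 to 1.5 with all 4 TET1 plasmids.

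Interferon-response genes had 3 of 17 higher in both constructs (17.6%), 1 lower (5.88%) and 12 opposed, against 27.7% higher and 20.5% lower of all genes. IFITM3, a membrane protein that restricts virus entry, stood at 7.25 with TET1-CD, 6.85 with mTET1-CD, 7.16 with TET1-FL and 6.79 with mTET1-FL. Its differences were 0.41 and 0.38 (unadjusted p = 0.0165 in limma). It was named after its values were seen and did not pass limma's adjusted threshold. IFITM2 had 0.24 and 0.57 and IFITM1 0.25 and -0.26. These 3 genes are similar in sequence and may share signal. DHX58 was opposed, at 0.12 and -0.94. Cholesterol synthesis genes had 5 of 20 higher in both (25.0%) and 9 lower (45.0%), with medians of -0.037 and -0.0084. HSD17B7 was at 0.10 and 0.27 and MSMO1 at -0.038 and -0.23. Epithelial genes had 6 of 21 higher (28.6%) and 3 lower (14.3%), with EPCAM at 0.81 and 0.11.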
